A study of Panicum virgatum with 54 samples.

Results

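A group of 79 switchgrass leaf genes, of 32190 in the deposited count table, had almost no transcript in most untreated control leaves and measurable transcript in leaves under drought or under drought with heat. Levels are in CPM, the usual measure that divides the count of a gene by the total count of its library. A gene belonged to the group when its median over the 15 control libraries from 72 to 168 h was below 0.5 CPM and its median over the 24 drought and combined-stress libraries from 96 to 168 h was at least 2 CPM. Members were therefore chosen on measured values, and the difference between treated and control libraries at those times is a description with no test. Silence in watered leaves, the working description of the group, holds for the medians but not for every control library: one control library at 144 h carried most members at treated levels, and the control libraries at 0 h carried 24 of the 79 at a median of 2 CPM or more.

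Plants that lose water close their stomata and build up the hormone abscisic acid, which switches on genes that are little used in turgid leaves. Well-known products of such genes in grasses and other plants are late embryogenesis abundant proteins and dehydrins, which protect cell structures during drying, and enzymes that make compatible solutes. Heat calls on a separate set of protective proteins, the heat shock chaperones. The table used here gives identifiers with no gene names, and 0 of the 32190 matched the 74976 genes of the available RefSeq table, so no member is assigned a function and leaf markers were not checked.

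All plants were ramets, that is clonal divisions, of AP13, a genotype of the lowland cultivar Alamo, and leaves were labelled with the developmental stage E3. Plants were labelled untreated (control, taken here as watered), droughted, or droughted and later heated (combined stress), and each treatment was sampled at 0, 72, 96, 120, 144 and 168 h with 3 libraries, 54 in all. Titles give the combined plants no heat at 0 and 72 h and count hours of heat after that, except at 168 h, where no hours are given. Control and drought plants shared one growth chamber and combined plants stood in another, so heat and chamber cannot be told apart in any comparison of combined plants with the others. Nothing in the labels tells if replicate libraries are separate plants, and p-values measure only the spread between these libraries, which may be technical.

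Total counts ran from 19.2 to 61.6 M (mega) in the 54 libraries, with a median of 34.6 M. A level of 2 CPM therefore stood for 38.3 to 123.2 counts and a level of 0.5 CPM for 9.58 to 30.8 counts, so the thresholds of the rule lay well above single reads. Among the 54 libraries, 12 almost lacked a set of 405 genes and 4 were intermediate for it, while the other 38 are called main-profile libraries here. No control library was among the 12, but 9 of the 24 treated libraries from 96 to 168 h were, and 0 of the 79 members belong to the 405 genes. Members that reached a median of 2 CPM in both the second-profile and the main-profile treated libraries numbered 49, with 22 more in the second profile alone and 8 in the main profile alone. The part of this profile in the members' levels was not tested.

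The members came on at different strength in libraries of the same group. In the control libraries from 72 to 168 h the number of members at 2 CPM or more ran from 0 to 61 with a median of 1, and without replicate 2 at 144 h the highest number was 18, in replicate 1 at 168 h. In the 12 drought libraries from 96 to 168 h it ran from 7 to 76 with a median of 63.5. In the 12 combined libraries at those times it ran from 15 to 75 with a median of 42. The treated and control ranges thus overlapped: 144 h replicate 2 lay among the treated libraries, and drought 168 h replicate 2, with 7 members, and combined 96 h replicate 2, with 15, lay below control 168 h replicate 1. In a bulk leaf sample, more transcript per cell and more cells that hold the transcript cannot be told apart.

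**Figure D1:**
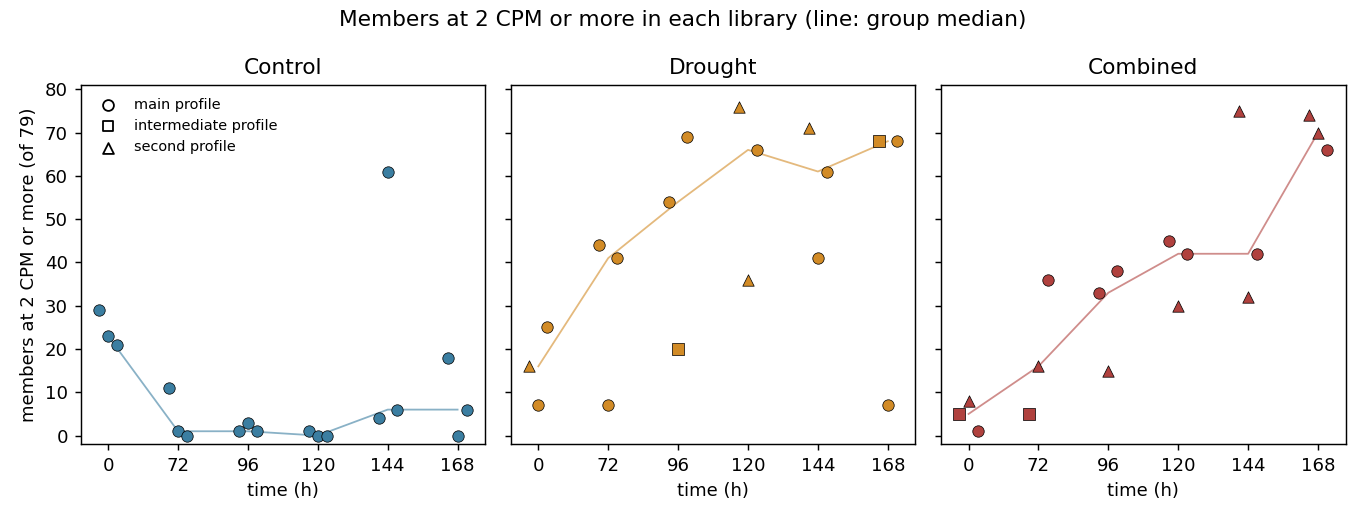
Number of the 79 members at 2 CPM or more (vertical axis) in each library by time in hours, in separate panels for control, drought and combined libraries. Each symbol is 1 library, its shape gives the library profile and the line joins group medians. Control libraries after 0 h lie at 18 or below except 144 h replicate 2 at 61, and drought replicate 2 at 168 h lies at 7.

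In drought, the library numbered 2 had the fewest members at 2 CPM or more of its group at 6 of 6 times. At 96, 120, 144 and 168 h these libraries had 20, 36, 41 and 7 members at 2 CPM or more. The other 8 drought libraries at these times had 54 to 76. Without the drought libraries numbered 2, 104 genes met the rule, all 79 members among them. In combined stress the library numbered 2 was the lowest at 96 h with 15, at 120 h with 30 and at 144 h with 32, but not at 168 h, where the libraries had 74, 70 and 66. The labels do not say that a number marks a plant or a batch.

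More members were at 2 CPM at 168 h than at 0 h in both treatments. Drought had more of them than combined stress at each time up to 144 h, 0 h included, and fewer at 168 h. In drought, the number of members with a group median of at least 2 CPM was, in order of the 6 times, 13, 34, 54, 77, 59 and 62. In combined stress it was 3, 11, 27, 42, 51 and 72. In control it was 24 at 0 h and then 1, 0, 0, 3 and 3. The median over members of the group medians was in drought 0.543 CPM at 0 h, 1.69 CPM at 72 h, 5.60 CPM at 120 h, then 5.91 CPM by 168 h. In combined stress it was 0.256 CPM at 0 h, 0.613 CPM at 72 h, 2.02 CPM at 120 h, then 8.84 CPM by 168 h. The drought and combined values from 96 h on are among those that chose the members, whereas those at 0 and 72 h had no part in the choice. Control values from 72 h on also chose the members, so their low numbers were in part fixed by the choice. The control values at 0 h were not used.

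The members split into 3 classes by treatment. In 41 of 79 the median of the 12 libraries from 96 to 168 h was at least 2 CPM in drought and in combined stress, in 28 it was so in drought alone and in 10 in combined stress alone. With main-profile libraries alone (7 drought and 6 combined), the numbers were 34, 29 and 12, with 4 in neither. Under combined stress the 28 drought members had class medians of 0.598, 1.06, 1.69 and 9.91 CPM at 96, 120, 144 and 168 h, and at the last time 27 of the 28 were at 2 CPM or more. The class requires a low combined-stress median over these libraries, and over all 79 members the values were 1.33, 2.02, 2.70 and 8.84 CPM. In drought the same 28 members had class medians of 3.21, 7.28, 5.49 and 12.1 CPM at those times. The 10 combined-stress members had class medians of 4.80, 4.99, 3.01 and 7.95 CPM under combined stress. In drought their class median was 1.32 CPM at 96 h, 3.28 CPM at 120 h, when 9 of the 10 reached 2 CPM, 0.477 CPM at 144 h, when 0 did, and 1.68 CPM at 168 h.

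**Figure D2:**
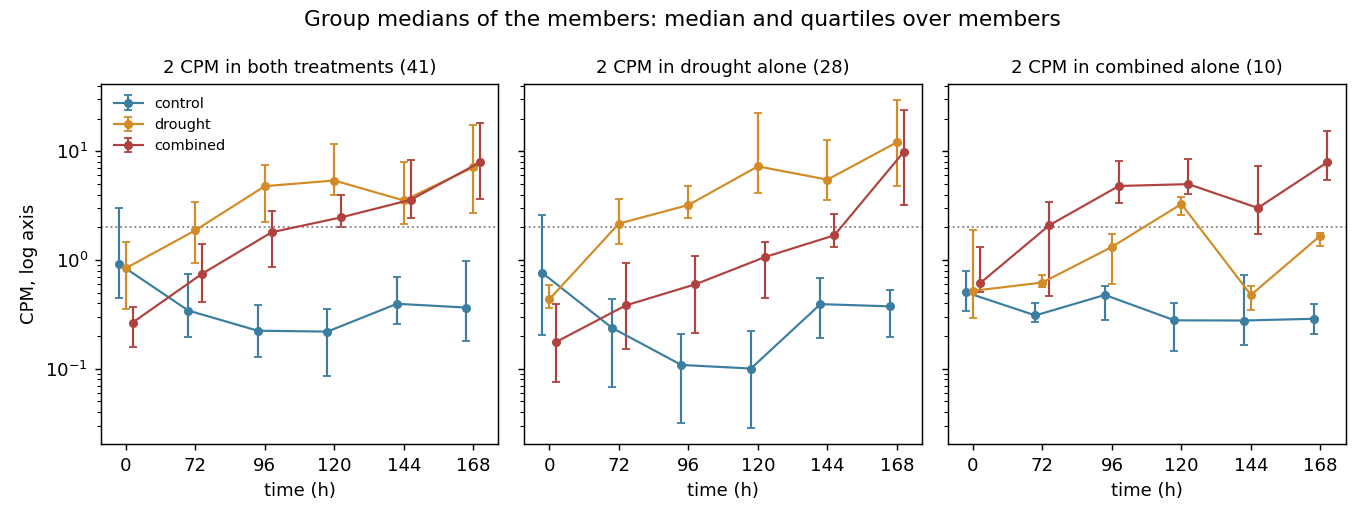
Group medians in CPM on a log axis by time in hours for the 3 classes of members, with the median over members as the point and the quartiles over members as the bar. Control is blue, drought orange and combined stress red, and the dotted line marks 2 CPM. The 28 drought members meet the drought level under combined stress at 168 h, with 9.91 against 12.1 CPM.

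**Figure D3:**
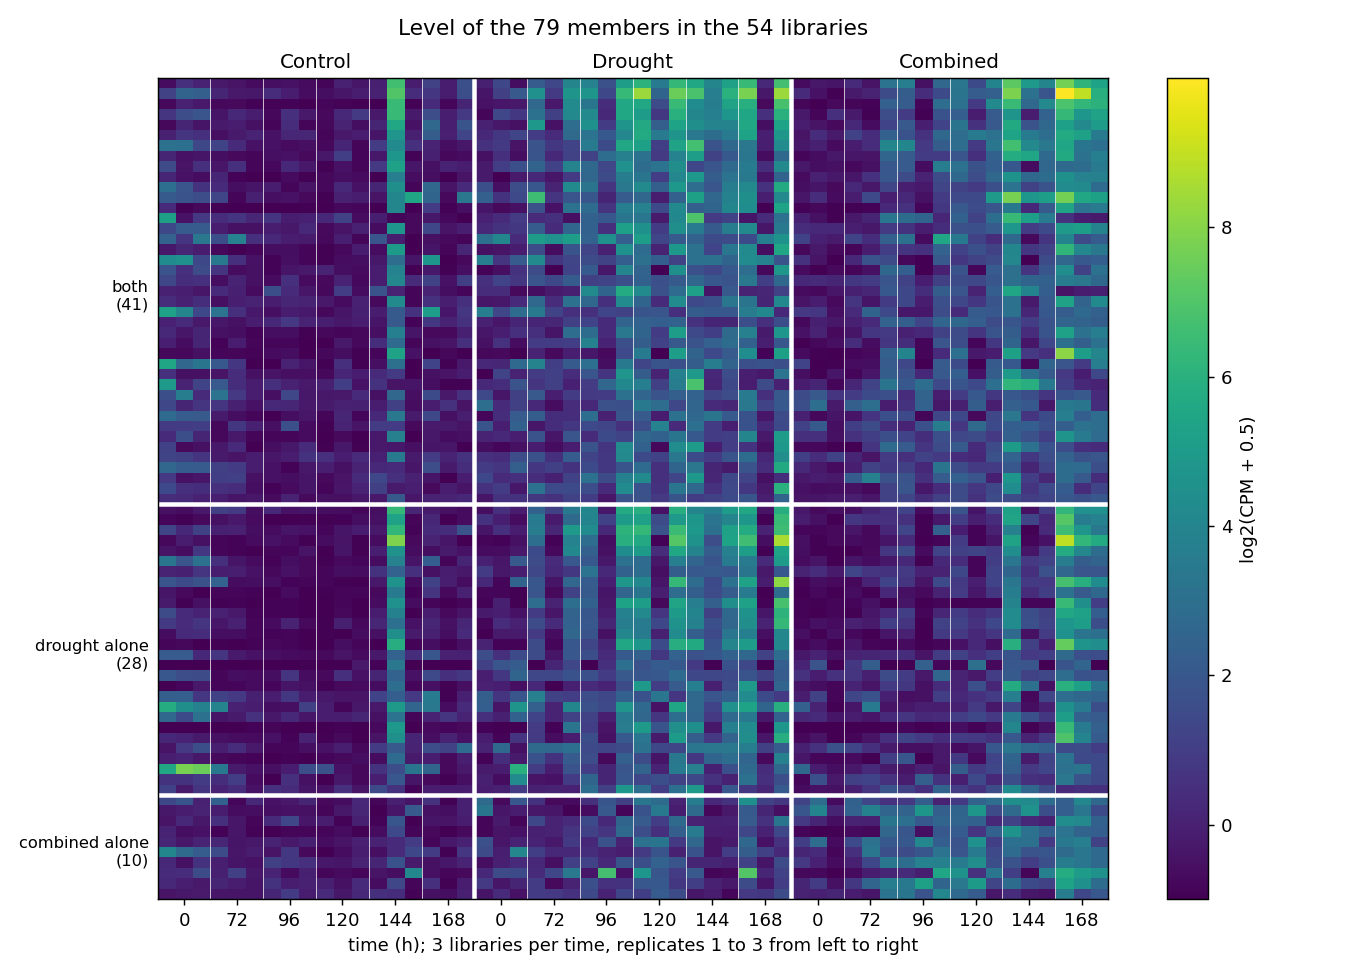
Level of each member (rows, grouped by class, highest treated median first) in each of the 54 libraries (columns, by treatment, time and replicate) as log2 of CPM plus 0.5. The bright column among the controls is 144 h replicate 2, where 61 of 79 members were at 2 CPM or more, and the dark column at drought 168 h is replicate 2 with 7.

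Pavir.8KG077600.v4.1, on chromosome 8K, had the highest treated median of the members in CPM, which is not corrected for gene length, at 22.8 CPM. Its drought levels in replicates 1, 2 and 3 were 13.997, 2.79 and 33.9 CPM after 96 h, 68.0, 10.9 and 78.4 CPM after 120 h, 46.1, 15.6 and 38.3 CPM after 144 h, and 86.4, 0.710 and 106 CPM after 168 h. Its combined-stress levels were 12.6, 0.205 and 5.63 CPM after 96 h, 9.55, 2.27 and 15.3 CPM after 120 h, 150.2, 30.0 and 15.4 CPM after 144 h, and 205, 69.8 and 40.8 CPM after 168 h. The control libraries from 72 h on lay between 0.0571 and 2.76 CPM, except 144 h replicate 2 at 100.4 CPM. Of the 24 treated libraries from 96 h on, 21 were above those controls, and drought 168 h replicate 2, combined 96 h replicate 2 and combined 120 h replicate 2 were within their range. Combined stress and drought over 96 to 168 h differed by a log2 fold change of -0.61 ± 0.65 (SE), which did not pass the test (edgeR adjusted p = 0.507).

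Pavir.1KG226200.v4.1, on chromosome 1K, was next, with a treated median of 18.9 CPM. Drought libraries from 96 h on ran from 0.321 CPM (168 h replicate 2) through a median of 73.7 CPM to 328 CPM (168 h replicate 3). Combined libraries ran from 0.818 CPM (96 h replicate 2) through a median of 6.49 CPM to 1019 CPM (168 h replicate 1). The 3 combined libraries at 168 h, at 1019, 484 and 61.5 CPM, were all far above those at 96 h, at 4.25, 0.818 and 2.25 CPM. That difference was 7.54 ± 1.93 (SE) on the log2 scale and missed the threshold after adjustment over all genes (edgeR adjusted p = 0.0898). At 72 h the drought libraries stood at 23.3, 1.31 and 25.05 CPM and the combined libraries at 0.362, 0.545 and 2.37 CPM, and at 0 h the control libraries stood at 1.72, 5.17 and 4.48 CPM. Control libraries from 72 h on were at or below 2.58 CPM except 144 h replicate 2 at 126 CPM.

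No member was without counts in all 18 control libraries, and 35 of 79 had at least 1 control library with 0 counts. The members with the fewest control counts over the 18 were Pavir.3KG235000.v4.1 on chromosome 3K and Pavir.J431500.v4.1, whose J identifier marks sequence placed on no chromosome. For Pavir.3KG235000.v4.1 the control libraries from 72 h on had a median of 0.0739 CPM and lay at or below 0.305 CPM except 144 h replicate 2 at 2.22 CPM. Its drought libraries from 96 h on ran from 0.409 to 11.6 CPM with a median of 1.87 CPM, and its combined libraries from 0.179 to 24.6 CPM with a median of 4.37 CPM. Pavir.J431500.v4.1 was one of the members that 144 h replicate 2 did not carry: that library stood at 0.321 CPM, within a control range of 0 to 0.745 CPM. Its drought libraries ran from 0.0894 to 32.4 CPM (median 2.22 CPM) and its combined libraries from 0.730 to 31.3 CPM (median 2.49 CPM), so that treated libraries overlapped the controls at the low end.

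No member separated all treated libraries from the controls. Taking the 14 control libraries from 72 h on other than 144 h replicate 2, 0 of 79 members had all 24 treated libraries above all 14, 32 had at least 18 above and 62 had at least 12 above. At the edges of the rule, Pavir.2NG145600.v4.1 entered with a control median of 0.485 CPM and a treated median of 2.30 CPM, and Pavir.7NG216900.v4.1 stayed out with a control median of 0.508 CPM. Pavir.5KG778800.v4.1 entered with a treated median of 2.02 CPM, and Pavir.3KG488300.v4.1 stayed out with 1.96 CPM.

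Control 144 h replicate 2 carried 61 of the 79 members at 2 CPM or more, against 4 and 6 in the other control libraries of that time. The median over members was 8.73 CPM in this library, rank 8 of all 54 libraries, against 0.0857 to 0.522 CPM in the other 14 control libraries from 72 h on. In 57 members it lay above the median of the 24 treated libraries, and in 5 above all 24. It carried 27 of the 28 drought members (class median 12.2 CPM) and 30 of the 41 members of both treatments (12.7 CPM), but 4 of the 10 combined-stress members (0.828 CPM). This library had the main profile. It entered the rule as 1 of the 15 control libraries, and without it 84 genes met the rule, the 79 members among them. The labels offer no check of whether control 144 h replicate 2 and drought 168 h replicate 2 carry the right group, and an exchange of libraries was not tested, so both are given as labelled.

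At 0 h, 24 of the 79 members had a median of 2 CPM or more in control leaves, and the median over members was 0.802 CPM. The combined plants, which stood in the other chamber, had fewer members at 2 CPM. Control libraries at 0 h had 29, 23 and 21 members at 2 CPM or more, drought libraries 16, 7 and 25, and combined libraries 5, 8 and 1. In 14 members the control median at 0 h was above the treated median, and in 12 all 3 control libraries at 0 h were above the 14 later control libraries. In the edgeR quasi-likelihood test of combined against control at 0 h, 8 of 79 members were lower and 0 higher (Benjamini-Hochberg adjusted p below 0.05), where 7.47% of all 32011 genes tested were lower and 5.48% higher. The lower members make 10.1% of the group, near the share of all genes. At an unadjusted p below 0.05, 3 members were higher and 18 lower, where 9420 of 32011 genes passed in either direction. The median log2 difference over the members was -1.61, against 0.02 over all genes. The count of lower members was 16, with 3 higher, in DESeq2, where 3316 of 32006 genes were lower and 2351 higher. It was 1 in limma with an estimated correlation, where 2138 of 32011 genes were lower. Leaving out second-profile and intermediate libraries left 1 combined library at 0 h, and the median log2 difference was then -2.05. The count of lower members was 0 without control replicate 1, combined replicate 2 or combined replicate 3. In those fits 105, 1136 and 705 of 32012 genes were lower, against 2391 of 32011 in the main fit. It was 2 members without combined replicate 1 and 5 without control replicate 2, where 1602 and 2099 of 32012 genes were lower.

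Of the members lower at 0 h, 4 belonged to the class of both treatments, 3 to drought alone and 1 to combined stress alone. Pavir.9NG265200.v4.1, on chromosome 9N, stood at 9.21, 3.27 and 8.18 CPM in control, at 0.488, 0.292 and 3.65 CPM in drought, and at 0.128, 0.25003 and 0 CPM in combined libraries. All combined libraries lay below all control libraries, with a log2 fold change of -5.38 ± 1.59 (SE, edgeR adjusted p = 0.0230). Pavir.2NG544900.v4.1, on chromosome 2N, stood at 46.5, 221 and 182 CPM in control, at 0.358, 0.402 and 63.0 CPM in drought, and at 6.05, 0.389 and 0.160 CPM in combined libraries. Its control levels at 0 h were far above its treated median of 2.15 CPM, and combined and control differed by -5.82 ± 1.74 on the log2 scale (SE, edgeR adjusted p = 0.0243). Drought and control plants shared a chamber. At 0 h they differed in 0 members in edgeR in either direction, where 0.00312% of all genes were higher and 0.0187% lower. At an unadjusted p below 0.05, 1 member was higher and 2 lower, where 1943 of 32011 genes passed in either direction. DESeq2 called 1 member higher and 0 lower, where 17 of 32006 genes were higher and 21 lower.

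**Figure D4:**
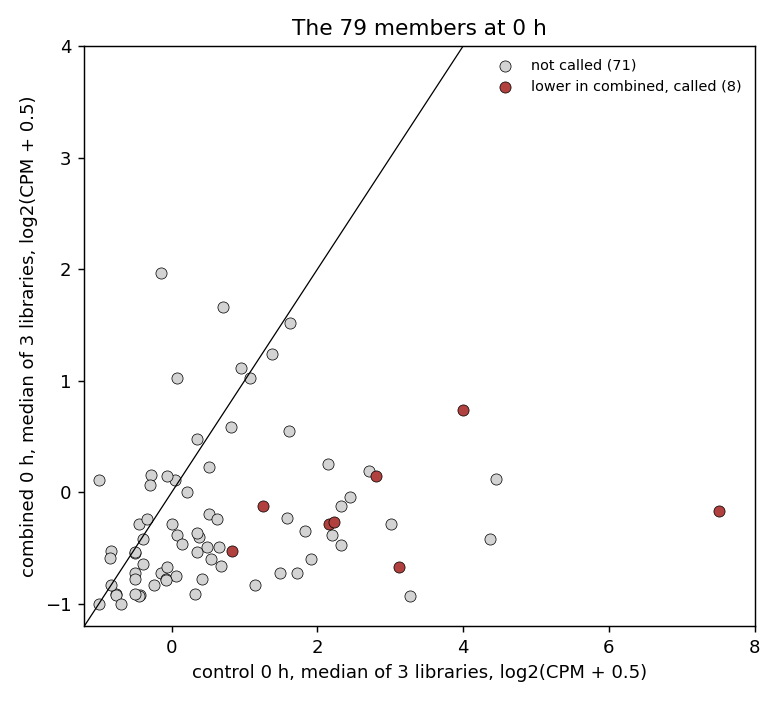
Level of each member at 0 h, as log2 of CPM plus 0.5, in control (horizontal axis, median of 3 libraries) and combined libraries (vertical axis, median of 3). The line marks equal levels, and the 8 members called lower in combined are red. Most points lie below the line, and in 33 members all 3 combined libraries were below all 3 control libraries, against 2 above. The same count was not made over all genes, so nothing is read from it about the members.

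Combined stress and drought over 96 to 168 h were compared by the difference of the mean of 4 group means each. The same 24 library values chose the members. The 28 drought members and the 10 combined-stress members met the treated threshold mainly through the arm where they were high. A difference in them was thus in part fixed by the choice, so the counts, and the p-values of named members below, are a description. Combined stress was lower in 20 of 79 members and higher in 6 (edgeR quasi-likelihood test, adjusted p below 0.05), that is 25.3% and 7.59% of the members, where 14.1% of all genes were lower and 15.8% higher. Nothing is read from these shares beside each other, for the reason just given. The median log2 difference was -0.90 over the members and -0.02 over all genes, with 64 members negative and 15 positive. The count depended on how libraries were treated. Limma with a correlation estimated among libraries of the same treatment and number called 1 lower and 5 higher. There 1796 of 32011 genes were lower and 3012 higher. Main-profile libraries alone gave 12 lower and 5 higher, where 2308 of 31992 genes were lower and 2390 higher. A fit of only the groups compared also gave 12 and 5, where 3881 of 31970 genes were lower and 4711 higher. Without drought 168 h replicate 3 or drought 96 h replicate 3 the lower members were 9 and 10, with 5 and 6 higher. Of 32012 genes, 3997 and 4081 were then lower and 4741 and 4784 higher. Without combined replicate 2 at 96, 120 or 144 h the lower members were 13 each time, with 4 higher. Over all genes, 4120, 4022 and 4247 were then lower and 4510, 4576 and 4831 higher. Without any drought library numbered 2, the count was 32 lower and 6 higher, where 3792 of 32011 genes were lower and 4680 higher.

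Members lower in combined stress came mostly from the drought class, 16 of the 20, with 4 from the class of both treatments; these classes rest on the same levels and are no further evidence. Their log2 differences ran from -1.07 to -4.61 with a median of -2.004. The median over these members was 8.87 CPM in drought and 1.57 CPM in combined stress, and control 144 h replicate 2 had 22.4 CPM and carried 18 of the 20 at 2 CPM or more. At 72 h, before heat, 18 of the 20 had a lower median in combined plants than in drought plants. By another measure, the edgeR log2 difference, 51 of all 79 members were negative at 72 h. At 0 h, 4 of the 20 had a higher median in combined plants, and the median over the 20 was 0.147 against 0.481 CPM in drought plants. At 168 h, 15 had a lower and 5 a higher median in combined stress.

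Pavir.3KG285800.v4.1, on chromosome 3K, had the smallest p of those. Its drought levels were 4.89, 0.308 and 41.03 CPM after 96 h, 35.8, 0.0894 and 42.7 CPM after 120 h, 12.6, 4.47 and 21.9 CPM after 144 h, and 38.9, 0.0458 and 111 CPM after 168 h. Its combined-stress levels were 0.275, 0 and 0.0683 CPM after 96 h, 0.0257, 0.0384 and 0.0449 CPM after 120 h, 14.5, 0.0575 and 0.0520 CPM after 144 h, and 87.8, 21.7 and 1.48 CPM after 168 h. It was thus at or below 0.275 CPM in the combined libraries before 144 h, and at 168 h the ranges of the treatments overlapped. The log2 fold change was -4.61 ± 0.99 (SE, edgeR adjusted p = 0.000556), and the adjusted p was 0.426 with an estimated correlation in limma. At 72 h it was 7.01, 0.561 and 7.41 CPM in drought and 0.0604, 0.204 and 0.0233 CPM in combined plants, with no overlap.

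Pavir.5KG546100.v4.1, on chromosome 5K, had the next smallest p. Its group medians in combined stress were 1.92, 0.412, 0.728 and 26.03 CPM at 96, 120, 144 and 168 h, against 19.5, 78.6, 28.8 and 53.1 CPM in drought. Drought libraries from 96 h on ran from 0.527 CPM (168 h replicate 2) through a median of 33.8 CPM to 96.33 CPM (168 h replicate 3). Combined libraries ran from 0.0256 CPM (96 h replicate 2) through a median of 1.33 CPM to 95.7 CPM (168 h replicate 1). The highest level in the group of controls from 72 h on was again 144 h replicate 2, at 76.2 CPM, with the others at or below 2.96 CPM. The log2 fold change was -3.53 ± 0.82 (SE, edgeR adjusted p = 0.00122), and the adjusted p was 0.199 with an estimated correlation in limma.

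All 6 members higher in combined stress belonged to the combined-stress class, with log2 differences from 1.32 to 3.01, and here too the class rests on the same levels. Their median was 5.61 CPM in combined stress and 1.27 CPM in drought. At 72 h, before heat, 5 of the 6 had a higher median in combined plants, with a median over the 6 of 3.15 against 0.621 CPM. At 0 h, 4 of the 6 had a higher median in combined plants, with 0.609 against 0.521 CPM over the 6. Pavir.6NG301400.v4.1, on chromosome 6N, had drought libraries from 0.275 to 3.62 CPM with a median of 1.38 CPM. Its combined libraries ran from 1.77 CPM to 40.9 CPM with a median of 8.48 CPM, so that the ranges overlapped at the edge. The log2 fold change was 3.01 ± 0.52 (SE, edgeR adjusted p = 4.4e-05). Pavir.6NG292200.v4.1, also on chromosome 6N, ran from 0.275 to 4.91 CPM in drought (median 1.72 CPM) and from 1.52 to 21.2 CPM in combined stress (median 8.47 CPM), with a log2 fold change of 2.23 ± 0.40 (SE, edgeR adjusted p = 7.6e-05). Both 6N members passed the threshold under all 34 settings tried for them. These settings reuse libraries that chose the members, so the passes are no further evidence.

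**Figure D5:**
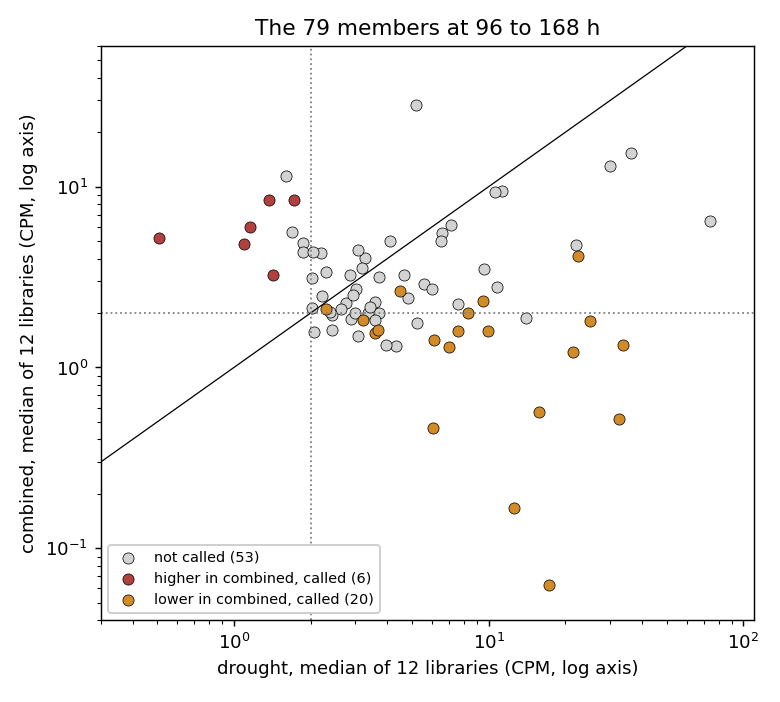
Level of each member over 96 to 168 h in drought (horizontal axis) and combined stress (vertical axis), each the median of 12 libraries in CPM on a log axis. Red points are the 6 members called higher and orange points the 20 called lower in combined stress, the line marks equal levels and dotted lines mark 2 CPM. Orange points reach down to 0.0629 CPM in combined stress at 17.2 CPM in drought, which is Pavir.3KG285800.v4.1.

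At 72 h, when titles give combined plants drought but no heat, different members reached a group median of 2 CPM in the treatments, while libraries of a group were far apart. By group medians of at least 2 CPM, 34 members were on in drought plants only, 11 in combined plants only and 0 in both. Of the 28 drought members 15 were on in drought plants and 0 in combined plants, and of the 10 combined-stress members 1 and 6. The libraries had 44, 7 and 41 members at 2 CPM or more in drought and 5, 16 and 36 in combined plants. Members on in drought by their median could also be on in a combined library, as Pavir.8KG077600.v4.1 was at 8.56 CPM in combined replicate 3. The edgeR test of combined against drought at 72 h called 0 members in either direction, where 1.86% of all genes were higher and 0.69% lower. At an unadjusted p below 0.05, 6 members were higher and 20 lower, where 5548 of 32011 genes passed in either direction. DESeq2 called 2 members higher and 6 lower, where 1191 of 32006 genes were higher and 628 lower. The median log2 difference over members was -1.04, and -0.92 in main-profile libraries alone, which left 1 combined library. The 20 became 6 without combined replicate 2, 8 without combined replicate 1, 9 when drought replicate 3 was left out and 13 when drought replicate 1 was.

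Against their own 0 h libraries, the 72 h libraries had higher point estimates for most members, with no member past adjustment in edgeR. In drought, 60 members had a positive and 19 a negative log2 difference, with a median of 1.28 against 0.01 over all genes. The edgeR test called 0 members in either direction, where 0% of all genes were called. At an unadjusted p below 0.05, 16 members were higher and 6 lower, where 3044 of 32011 genes passed in either direction. Leaving out replicate 3 lowered the 16 to 7 where it was the 72 h library and to 9 where it was the 0 h library, and each other omission gave 11 to 22. DESeq2 called 1 member higher and 0 lower, against 14 higher and 203 lower among all 32006 genes it tested. In combined plants, 69 were positive and 9 negative, with a median of 1.53 against 0.04 over all genes. EdgeR again called 0 members and 0% of all genes. At an unadjusted p below 0.05, 16 members were higher and 0 lower, where 3801 of 32011 genes passed in either direction. The 16 became 2, and the median 0.81, without combined 72 h replicate 3, and 9 to 20 without any other library. DESeq2 called 2 members higher and 0 lower, where 212 of 31385 genes were higher and 25 lower. With main-profile libraries alone, which left 1 library at each time, the median over members was 3.17.

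The levels at 168 h were also set against those at 96 h. These libraries are among the 24 that chose the members, so the values describe the members and nothing is read from them against all genes. In combined stress 67 members had a positive difference and 12 a negative one, with a median of 2.38 on the log2 scale against -0.06 over all genes. The edgeR test called 0 members and 0% of all genes in either direction. At an unadjusted p below 0.05, 41 members were higher and 2 lower, where 5225 of 32011 genes passed in either direction. DESeq2 called 20 members higher and 0 lower, where 437 of 32006 genes were higher and 352 lower. Limma with an estimated correlation called 2 members higher, where 358 of 32011 genes were higher. Of the 3 combined libraries at 168 h, 2 had the second profile, and with main-profile libraries alone, which left 1 library at 168 h, the median was 1.63. In drought the median was 0.86, and edgeR called 0 members and 0% of all genes. At an unadjusted p below 0.05, 8 members were higher and 4 lower, where 1195 of 32011 genes passed in either direction. DESeq2 called 0 members higher and 1 lower, where 74 of 32006 genes were higher and 35 lower. Leaving out 1 library moved the drought median from 0.19 (without 168 h replicate 3) to 1.80 (without 96 h replicate 3). It was 0.55 without 168 h replicate 1 and 1.40 without 168 h replicate 2.

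Members tended to be high in the same treated libraries. Over the 24 treated libraries, and on log2 of CPM plus 0.5, 2640 of the 3081 pairs of members had a correlation above 0 and 1422 above 0.5, with a median of 0.456. These libraries share treatments, times and scaling, and were used to choose the members, so the correlations are a description. The correlation of a member with the mean of the other members had a median of 0.770 and ran from -0.277 to 0.973. Its median was 0.890 in the 28 drought members, 0.755 in the 41 members of both treatments and 0.0419 in the 10 combined-stress members.

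By the chromosome coded in the identifier, 42 members lay on the K subgenome, 28 on the N subgenome and 9 on unplaced J sequence. These are 53.2%, 35.4% and 11.4% of the members, where the table holds 48.9%, 46.6% and 4.52% of its genes. Chromosome 5K held the most members, 13 or 16.5% against 8.29% of all genes, and 0 pairs of members had neighbouring identifiers. These shares were not tested. Levels are not corrected for gene length, and a near-identical copy on the other subgenome may share reads with a member, so the order of members by CPM is not an order of transcript number.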

How the data were processed

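Leaf RNA of 54 libraries was analysed from the authors' deposited raw count table (whole numbers for each gene, with no scaling), with 1 column per library and 0 columns left unused. The library kit kept strand, per the labels' protocols. TopHat, Cufflinks and HTSeq are named, per the submitters' processing notes. What build, annotation and strand setting they ran with is not given in the sources used here. Reads of near-identical copies or overlapping genes may be split between identifiers. Groups and times came from titles, with 94 h read as 96 h and 1 week as 168 h.

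CPM used column totals. Tests used edgeR 4.0.16 (R 4.3.3): default expression filter (minimum count 10, minimum total 15; 32011 genes kept, 179 removed, all 79 members kept), TMM scaling, a quasi-likelihood model with 18 group means over all 54 libraries, and Benjamini-Hochberg adjustment over all genes kept, with calls below 0.05. The common coefficient of variation between libraries was 0.433. The most similar replicate pair differed by 23.4 times what sampling gives, so none appeared to be copies. The procedure was tested on simulated counts. Alternatives were DESeq2 1.42.0, its size factors, other filters, the replicate number as a block, limma 3.58.1 voom with an estimated correlation (0.204), only the groups compared, only main-profile libraries and leaving out each library. A fit without drought libraries numbered 2 and the classes in main-profile libraries were added after seeing the data.

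The profile was found at 0 h among genes averaging 20 counts or more, as those whose log2 CPM split the libraries into levels at least 2 apart. Libraries at or above 0.75 of the high level are main-profile and those below 0.1 second-profile. The members and lists were chosen with earlier results of these data known. The genes named are the 2 members with the highest treated median, the 2 with the fewest control counts, those next to each threshold, and in each comparison the 2 higher and 2 lower called members with the smallest p.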

Additional observations from a re-analysis of the deposited data

How the results depend on the processing

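The number of genes meeting the rule followed its thresholds: 33 with a control median below 0.25 CPM, 279 below 1 CPM, 205 with a treated median of at least 1 CPM and 22 of at least 4 CPM. It was 73 to 85 when each library was left out, 67 with TMM-scaled CPM (66 shared) and 71 with main-profile libraries (57 shared). For combined stress against drought over 96 to 168 h, 26 members were called. Limma with an estimated correlation called 6, with 5 higher and 1 lower, where 3012 of 32011 genes were higher and 1796 lower. The number was 17 in main-profile libraries, 17 with only the groups compared and 14 to 32 when each library was left out. The cause of these changes was not tested. At 72 h, combined against drought gave 8 in DESeq2, 1 with the replicate block and 0 to 1 with a library left out (1 without combined replicate 1). From 0 to 72 h, drought gave 1 in DESeq2. Combined plants gave 2 in DESeq2 and 0 to 1 with a library left out (1 without combined 72 h replicate 1). Combined against control at 0 h gave 19 in DESeq2, 1 in limma, 2 with only the groups compared and 0 to 9 with a library left out. With only the groups compared, 190 of 31778 genes were lower and 71 higher. Drought against control at 0 h gave 1 in DESeq2, drought at 168 against 96 h gave 1 in DESeq2, and combined at 168 against 96 h gave 20 in DESeq2 and 2 in limma. These 3 comparisons, and drought at 72 against 0 h, gave 0 with any library left out. Main-profile fits of single times that left 1 combined library are given by effect size alone, so their counts are not listed.

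Libraries of the same number in compared groups did not all deviate together: the correlation of their deviations was -0.251 for replicate 1 at 120 h and -0.306 for replicate 2 at 144 h, though above 0.1 for each number at 96 and 168 h. Within combined plants, replicates 1, 2 and 3 gave -0.0689, 0.659 and 0.429 between 0 and 72 h. Between 96 and 168 h they gave -0.201, 0.668 and 0.496. Within drought the values were 0.171, 0.0447 and 0.0326, and then 0.0366, 0.434 and 0.467. The main fit took the numbers as names, so any dependence between libraries of the same number and treatment was not modelled there. The replicate block gave 21 members for combined stress against drought over 96 to 168 h (6 higher and 15 lower) and 11 for combined against control at 0 h. Of 32011 genes, it called 5458 higher and 4829 lower in the former, and 2278 higher and 2795 lower in the latter. None of the 6 named fold changes that were tested changed sign in any setting tried. Pavir.3KG285800.v4.1 and Pavir.5KG546100.v4.1 lost their call in limma with an estimated correlation alone, of 34 settings. These settings too reuse libraries that chose the members. Pavir.9NG265200.v4.1 and Pavir.2NG544900.v4.1 passed in 8 and 10 of 15 settings, with adjusted p up to 0.186 and 0.112. Comparisons at a single time rest on 3 libraries a group, and 9.58 to 30.8 counts lie behind a level of 0.5 CPM.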
